A study of Mus musculus with 8 samples.

Results

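The 47 genes described here encode ligands, receptors, Smads, latent binding proteins, regulators, antagonists and target genes of the transforming growth factor beta (TGF-beta), activin and bone morphogenetic protein (BMP) pathways, with the Id genes left out. They were chosen by name, as a list of mouse gene symbols matched to the rows of a bulk RNA-seq count table, and all 47 were found among its 31053 gene identifiers. Levels were read in 8 libraries of brown adipose tissue (BAT) from C57BL6/J mice labelled as 8 weeks old, of which 4 were labelled WT and 4 Cd36KO. CD36 is a scavenger receptor and fatty acid transporter of macrophages, adipocytes and endothelium. The study made germline Cd36 knockouts and also mice whose floxed Cd36 was removed by a Cre under the Csf1r promoter, which is active in myeloid cells, and its text describes the BAT profiled by RNA-seq as coming from the latter, whereas the labels give only Cd36KO. In that model adipocytes and endothelium keep the gene. The comparison asks how loss of CD36 relates to a pathway through which, in the study's question, macrophages may signal to brown adipocytes. The methods do not say that animals were pooled, and the design text calls the libraries biological replicates. The methods give a later age at sacrifice for mice without macrophage CD36, and fasting before harvest.

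TGF-beta is secreted in a latent complex, held in the extracellular matrix by latent TGF-beta binding proteins, and once released it joins a type II and a type I receptor kinase that phosphorylate Smad2 and Smad3. BMPs use other receptors of the same family and signal through Smad1, Smad5 and Smad9, and both arms share Smad4. In adipose tissue TGF-beta and activin signals are known to restrain brown and beige adipocyte genes and to raise matrix genes, while several BMPs promote brown adipocyte commitment.

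The libraries held 2679785 to 4097953 counts and 13368 to 14698 genes with a count. Cd36 itself stood at 2796, 2958, 3505 and 2412 normalized counts in WT replicates 1 to 4, and at 1926 in the Cd36KO library whose count column carries no replicate number (the unnumbered Cd36KO library) and 2109, 2384 and 1930 in replicates 2 to 4. The sample labels number the Cd36KO samples 1 to 4, so the unnumbered column may be number 1, but its name does not give it. A normalized count is the count divided by the library's size factor. Cd36 was therefore abundant in every library labelled Cd36KO, at 0.715 times the WT level (DESeq2, adjusted p = 0.0602, n = 4 against 4), so the label could be checked only in part: every direction below is that of the libraries as labelled. The labels also name the stromal vascular fraction, which lacks mature adipocytes, yet the summed level of 7 adipocyte markers was 33772 to 70831 normalized counts. The methods state male mice, whereas Xist was counted 772 to 1588 times per library and, of 4 genes on the Y chromosome, Uty, Kdm5d and Eif2s3y not at all and Ddx3y 3 times, in WT replicate 1. WT replicate 1 stood apart, with 55332 normalized counts summed over 13 skeletal muscle markers against 423 to 12414 in the other 7 libraries, and with 761 over 10 white fat markers, where WT replicates 2 to 4 held 4440 to 5461 and the Cd36KO libraries 699 to 1132. The white fat markers Hoxc10 and Wt1 were at 0 in every library. Brown adipocyte markers summed to 14976 to 19728 in WT and 27077 to 35661 in Cd36KO, stromal markers to 2233 to 2725 and 1825 to 2112, and macrophage markers to 696 to 1313 and 749 to 1062, and 1 of the 13 macrophage markers was called, Cd163, lower at 0.421 times the WT level (DESeq2 adjusted p = 0.0183). In bulk tissue, fewer cells of a type cannot be told apart from less RNA per cell.

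Every member had at least 1 count, 30 had a mean of at least 10 normalized counts over the 8 libraries, and 12 a mean of at least 50. Of the 30, 1 passed the DESeq2 threshold (adjusted p under 0.05), the latent binding protein gene Ltbp2, which was higher in Cd36KO, and 29 did not. Over all 9619 genes with an adjusted p, 2.95% passed, 1.42% higher and 1.53% lower, so the members' share lies near that of all genes. Unadjusted p-values under 0.05 were found for 2 of all 47 members, Ltbp2 and the ubiquitin ligase gene Smurf1, against 9.76% of all genes with a p-value. In 3 of the 30 members the 4 Cd36KO libraries lay all on the same side of the 4 WT libraries: Ltbp2 and the BMP type II receptor gene Bmpr2 were higher and Smurf1 lower, against 8.65% of all genes with such a mean in either direction. edgeR's quasi-likelihood test could be run on 28 of the 30 and called 0 of them, with 2 at an unadjusted p under 0.05, against 0.143% of all genes called by that test. The median log2 fold change of the 30 members (Cd36KO over WT) was -0.08, with 11 above and 19 below 0, beside a median of -0.01 and 49.2% above 0 over all genes tested.

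**Figure D1:**
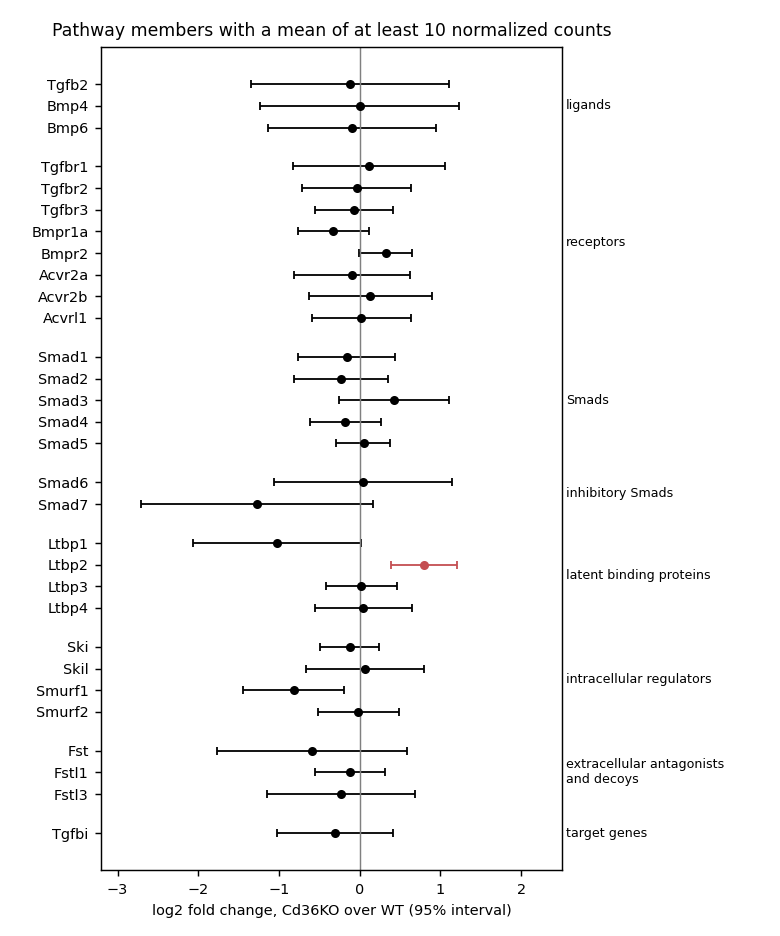
Log2 fold change of Cd36KO over WT, with its 95% interval, for the 30 members with a mean of at least 10 normalized counts, grouped by role (8 libraries, DESeq2). Ltbp2, in red, is the member past the adjusted threshold, at 0.80, and Smurf1 is the other member whose interval does not hold 0.

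Levels spanned the pathway unevenly. Ltbp3, which encodes a latent binding protein, had the highest mean normalized count per kb of exon, at 35.8, followed by Smad5 at 30.5, the Smad corepressor gene Ski at 23.4 and Smad4 at 22.8. Of the 10 ligand genes, Bmp4 stood highest on this scale, at 5.11, and the antagonist genes Nog and Grem1 were lowest of all members, at 0.0754 and 0.0272. The order over genes is a description on a per-length scale, and whether counts of this digital mRNA-seq library type grow with transcript length is not given in the sources used here.

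**Figure D2:**
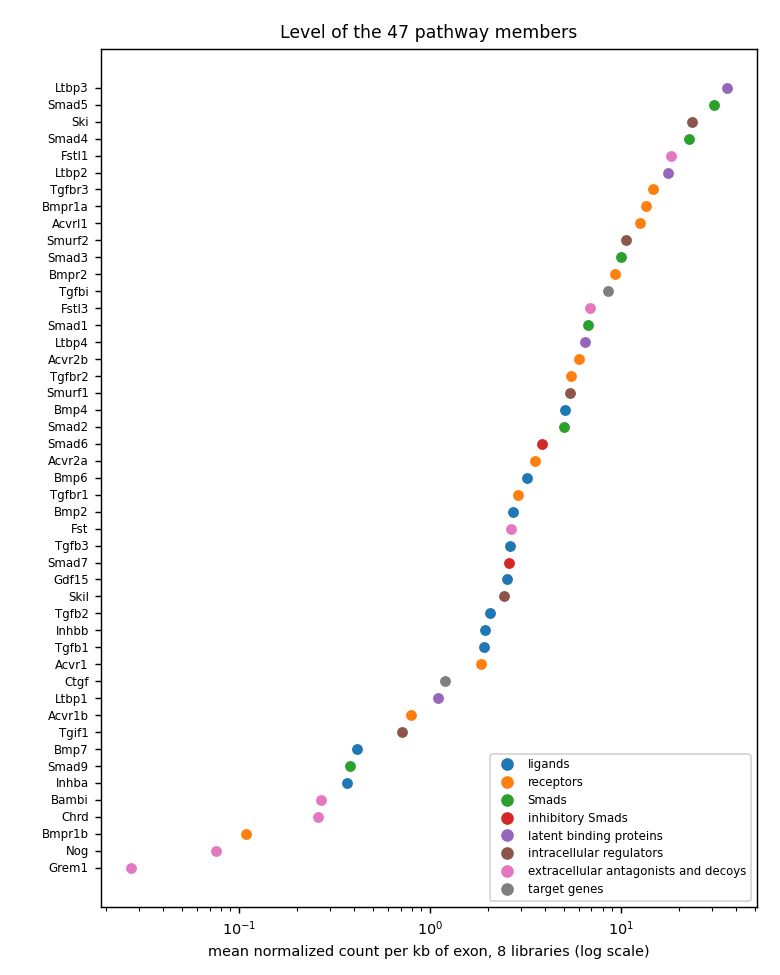
Mean normalized count per kb of exon over the 8 libraries, on a log scale, with 1 point per member coloured by role. The scale runs from Grem1 at 0.0272 to Ltbp3 at 35.8, with all ligand genes at or below Bmp4 at 5.11 and the antagonist genes spread from the bottom to Fstl1 at 18.2.

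The ligand genes were read at low depth. Tgfb1, which encodes the ligand the study asked about, had 0.903, 7.64, 4.70 and 9.89 normalized counts in WT replicates 1 to 4, and 10 in the unnumbered Cd36KO library and 13.8, 8.18 and 22.1 in Cd36KO replicates 2 to 4. The Cd36KO libraries lay mostly above, but replicate 3 of Cd36KO fell below WT replicate 4, so the groups overlapped, and the values rest on 1 to 29 counts per library. The ratio was 2.36 with a 95% interval of 0.966 to 5.77, and an exact permutation of the group labels (two-sided, 70 arrangements, smallest possible p 0.0286) gave p = 0.0571. The gene lies on the + strand of chromosome 7 of GRCm38, from 25687002 to 25705077. Its mean lay under the level at which DESeq2 gives an adjusted p, and with independent filtering off the DESeq2 adjusted p was 0.554. The size of the difference depended on the fit: the log2 fold change was 1.24 (SE 0.66), 3.84 with the white fat marker level as a covariate and 0.87 without WT replicate 1. That covariate nearly follows the groups, with a mean log2 level of 4.27 to 6.22 in WT and 3.81 to 4.35 in Cd36KO. In summed white fat counts only WT replicate 1, at 761, lay in the Cd36KO range, and it held 1 count of Tgfb1. The other TGF-beta isoform genes did not separate either: Tgfb2 was 12.4 ± 7.36 in WT and 11.4 ± 6.69 in Cd36KO (mean ± SD of normalized counts, n = 4 each), and Tgfb3 9.31 ± 5.15 and 8.39 ± 1.62.

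Among the BMP genes, Bmp4, whose product directs mesenchymal cells towards the adipocyte lineage, was 11.5 ± 4.61 in WT and 11.5 ± 7.84 in Cd36KO. Bmp6 was 13.1 ± 4.23 and 12.1 ± 6.43 and Bmp2 8.37 ± 3.19 and 11.0 ± 6.56. Bmp7, whose product drives brown adipocyte differentiation, was counted 2 times in all in WT and 11 times in Cd36KO, with 0 counts in WT replicates 2, 3 and 4 and at most 4 in any library, too few to describe a change (exact permutation p = 0.0571). The activin subunit gene Inhba had 1 to 5 counts per library, its relative Inhbb 4 to 13, and Gdf15, which encodes a stress-induced hormone of the family, 2 to 10. No ligand gene with a mean of at least 10 passed the threshold, and their log2 fold changes lay between -0.12 and -0.00.

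Of the receptor genes, 8 of 11 had a mean of at least 10, and 0 of them passed the DESeq2 threshold (adjusted; 0 also at an unadjusted p under 0.05, and 0 by edgeR). Tgfbr1, the type I receptor of TGF-beta, had 23.5, 14.4, 8.23 and 25.7 normalized counts in WT replicates 1 to 4 and 18.9, 33.4, 12.3 and 14.5 in the unnumbered Cd36KO library and replicates 2 to 4. The range in Cd36KO ran from within the WT range to above it, and the log2 fold change was 0.12 (SE 0.48, DESeq2 adjusted p = 0.947). Tgfbr2, the type II receptor, had 41.5, 40.8, 48.2 and 51.4 in WT and 20.1, 38.0, 54.2 and 62.5 in Cd36KO. The Cd36KO libraries thus spread on both sides of the WT libraries, the coefficient of variation being 43.0% against 11.4%, and the log2 fold change was -0.04 (SE 0.35, DESeq2 adjusted p = 0.974). Tgfbr3, the coreceptor betaglycan, was 98.3 ± 15.8 and 93.8 ± 23.9.

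Bmpr2 encodes the type II receptor of the BMPs and was among the 3 members whose groups did not overlap. It had 153, 161, 147 and 137 normalized counts in WT replicates 1 to 4, and 187 in the unnumbered Cd36KO library and 182, 174 and 202 in replicates 2 to 4. Every Cd36KO library was above every WT library, by a small margin: the ratio of the fit was 1.25, with a 95% interval of 0.996 to 1.57. The change did not pass the threshold, with a log2 fold change of 0.32 (SE 0.17, DESeq2 adjusted p = 0.335). Bmpr1a, a type I receptor that pairs with it, was 95.5 ± 19.6 in WT and 76.2 ± 3.70 in Cd36KO, and its 4 Cd36KO libraries lay between 71.6 and 80.5 (log2 fold change -0.33, SE 0.23, DESeq2 adjusted p = 0.520). A quantity chosen after these values were seen, which does not depend on the scaling of libraries, is the share of Bmpr2 among counts of both genes: it was 61.2% ± 3.51 in WT and 70.9% ± 1.28 in Cd36KO, from 209 to 366 counts per library, and the groups did not overlap.

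The remaining receptor genes did not pass the threshold or lay under a mean of 10. Acvr2a and Acvr2b, the activin type II receptors, were 20.8 ± 2.28 and 22.7 ± 7.63 in WT and 19.4 ± 1.63 and 24.6 ± 4.43 in Cd36KO. Acvrl1, an endothelial receptor of BMP9 and BMP10, was 53.0 ± 17.4 and 53.5 ± 11.8. Under a mean of 10 lay Acvr1, a BMP type I receptor, with 0 to 23 counts per library and means of 12.6 ± 5.60 and 5.19 ± 5.0, Acvr1b, the activin type I receptor, with 2 to 8 counts, and Bmpr1b with 0 to 2.

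The receptor-regulated Smad genes and Smad4 did not separate the groups. Smad2, which carries TGF-beta and activin signals, had 38.8, 49.3, 61.2 and 42.5 normalized counts in WT replicates 1 to 4 and 35.7, 35.7, 56.3 and 35.1 in the unnumbered Cd36KO library and replicates 2 to 4. Of the Cd36KO libraries 3 lay below the WT range and replicate 3 within it, and the log2 fold change was -0.23 (SE 0.30, DESeq2 adjusted p = 0.783). Smad3, its partner, had 83.0, 34.0, 43.5 and 27.7 in WT and 59.1, 52.9, 77.7 and 62.5 in Cd36KO. All 4 Cd36KO libraries were above WT replicates 2, 3 and 4 and below WT replicate 1, the library with the most muscle and the least white fat marker counts of its group, and the log2 fold change of 0.42 (SE 0.35, DESeq2 adjusted p = 0.613) became 0.86 without that library (adjusted p = 0.123) and -0.52 with the white fat marker level as a covariate (adjusted p = 0.533). The share of Smad3 among counts of Smad2 and Smad3 was 68.1% in WT replicate 1, 39.4% to 41.6% in the other WT libraries and 58.0% to 64.1% in Cd36KO.

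Smad4, the common partner of both arms, had 102, 79.8, 96.4 and 82.1 normalized counts in WT and 72.4, 66.7, 79.8 and 96.9 in Cd36KO. The groups overlapped, and the log2 fold change was -0.18 (SE 0.23, DESeq2 adjusted p = 0.775). The BMP Smad genes had close means, Smad5 at 223 ± 27.4 and 230 ± 23.2 and Smad1 at 44.3 ± 10.1 and 39.7 ± 9.40, and Smad9 had 0 to 6 counts per library. Of the inhibitory Smad genes, which are themselves induced by the pathway, Smad6 was 12.1 ± 5.88 and 12.5 ± 5.61. Smad7 was 16.5 ± 11.9 in WT and 6.83 ± 5.21 in Cd36KO, with WT replicate 3 at 32.9 and Cd36KO replicate 3 at 0, and did not pass the threshold (DESeq2 adjusted p = 0.409, log2 fold change -1.27, SE 0.73).

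**Figure D3:**
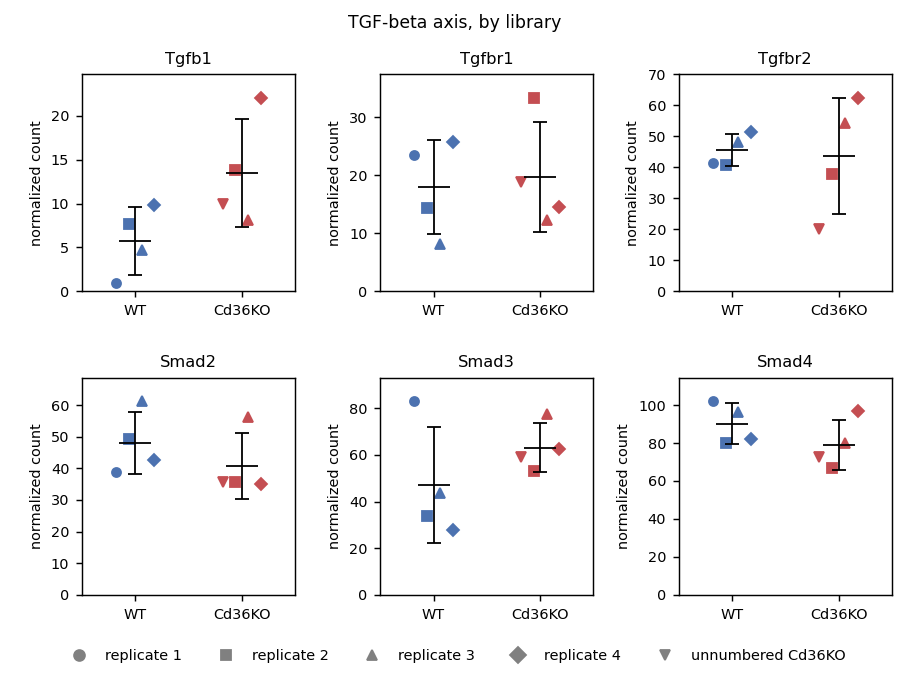
Normalized counts of Tgfb1, its receptor genes Tgfbr1 and Tgfbr2, and Smad2, Smad3 and Smad4 in each of the 8 libraries (points), with the mean and SD of the 4 libraries per group (bars). In all 6 genes the groups overlap, and in Smad3 the WT library at 83.0 is replicate 1.

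Of the 4 latent binding protein genes, 1 passed the threshold. Ltbp2, whose product is a large microfibril protein that resembles the latent TGF-beta binding proteins but is known not to bind latent TGF-beta itself, had 99.3, 91.7, 112 and 120 normalized counts in WT replicates 1 to 4, and 206 in the unnumbered Cd36KO library and 142, 166 and 218 in replicates 2 to 4. Every Cd36KO library was above every WT library. The mean rose from 106 ± 12.5 to 183 ± 35.5, a ratio of 1.74 with a 95% interval of 1.31 to 2.31 (log2 fold change 0.80, SE 0.21, DESeq2 adjusted p = 0.0137). Its fold moved less than its call did: the log2 fold change stayed between 0.69 and 0.97 under 17 alternatives, while the adjusted p passed the threshold in 7 of them and missed it in 10, among them edgeR (0.104), the muscle marker covariate (0.0506) and the white fat marker covariate (0.0722). The call was also lost without WT replicate 2 (0.133), WT replicate 3 (0.0509), the unnumbered Cd36KO library (0.104) or Cd36KO replicate 4 (0.124), and without WT replicate 1 it was kept (0.0316). Beside it, the summed brown adipocyte markers were higher and the summed stromal markers lower in every Cd36KO library than in every WT library. The stromal sum weights abundant genes: the mean log2 level of the 11 stromal markers overlapped, at 6.20 to 6.76 in WT and 6.24 to 6.41 in Cd36KO, with 3 markers above and 8 below 0 in log2 fold change. The part of either list in this result was not tested.

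The other latent binding protein genes did not pass the threshold. Ltbp3 was 323 ± 67.5 in WT and 328 ± 86.0 in Cd36KO, and Ltbp4, the elastic fibre protein, 41.1 ± 10 and 42.4 ± 10. Ltbp1, which tethers latent TGF-beta to the matrix, was 15.6 ± 6.46 and 7.80 ± 1.64 (log2 fold change -1.02, SE 0.53, DESeq2 adjusted p = 0.336). Described after the values were seen, the share of Ltbp2 among counts of the 4 genes was 20.4%, 22.0%, 24.5% and 20.6% in WT and 29.5%, 26.6%, 33.5% and 42.2% in Cd36KO, from 387 to 678 counts per library. The groups do not overlap in this share, which does not depend on the size factors.

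The sequence upstream of Ltbp2 is shown as that of the member past the threshold, so that it can be set beside letters a Smad complex is known to bind: CAGAC, which holds the Smad box AGAC, and GGCGCC, a GC-rich element of BMP-responsive Smads. Both strands were searched. GGCGCC is its own reverse complement, and a match of it may share an end base with a match of CAGAC. The gene runs from 84783212 to 84876532 on the - strand of chromosome 12 of GRCm38. Of the 250 bases before the RefSeq start, 41 lie inside the GENCODE gene, and the 209 outside it, chr12:84876533-84876741, are written in the direction of the gene with CAGAC and its reverse complement in capitals.
Ltbp2: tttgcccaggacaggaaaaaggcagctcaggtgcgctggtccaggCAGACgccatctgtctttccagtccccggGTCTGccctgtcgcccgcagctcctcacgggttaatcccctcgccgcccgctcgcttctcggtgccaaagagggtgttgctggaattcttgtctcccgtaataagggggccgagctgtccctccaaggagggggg
It held 2 matches of CAGAC or its reverse complement and 0 of GGCGCC. In the stretch of the same length and place before 27025 RefSeq starts, 37.0% held CAGAC or its reverse complement and 7.56% GGCGCC. A match describes the letters only. Since 34 of the 47 members matched a RefSeq promoter, no share over the members is given, and for Bmpr2, whose 250 bases before the RefSeq start all lie inside the GENCODE gene, none is printed.

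The intracellular regulators include the Smurf ubiquitin ligases, which mark Smads and receptors for degradation, and the corepressors Ski, Skil and Tgif1. Smurf1 had 49.6, 46.7, 42.3 and 36.6 normalized counts in WT replicates 1 to 4, and 17.8 in the unnumbered Cd36KO library and 21.9, 28.6 and 30.5 in replicates 2 to 4. Every Cd36KO library was below every WT library. The ratio was 0.568 with a 95% interval of 0.370 to 0.874 (log2 fold change -0.81, SE 0.32), and it did not pass the threshold over all genes (DESeq2 adjusted p = 0.147, edgeR adjusted p = 0.159). Smurf2, its closest relative, was 65.8 ± 14.2 and 64.8 ± 8.80. The share of Smurf1 among counts of both, again chosen after the values were seen, was 40.3% ± 3.58 in WT and 27.4% ± 3.77 in Cd36KO, without overlap, from 65 to 150 counts per library.

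The sequence upstream of Smurf1 is shown beside it, as that of the member that was lower in every Cd36KO library. The gene runs from 144876495 to 144965847 on the - strand of chromosome 5. Here 17 of the 250 bases lie inside the GENCODE gene, and the other 233, chr5:144965848-144966080, are written with capitals as above.
Smurf1: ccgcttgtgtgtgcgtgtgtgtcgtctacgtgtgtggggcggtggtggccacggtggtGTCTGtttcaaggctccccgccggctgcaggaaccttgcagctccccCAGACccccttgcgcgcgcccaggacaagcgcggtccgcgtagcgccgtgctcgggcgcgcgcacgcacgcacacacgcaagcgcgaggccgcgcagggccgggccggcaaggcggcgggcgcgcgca
It held 2 matches of CAGAC or its reverse complement and 0 of GGCGCC, where 39.9% and 8.71% of all starts held them over this length. The letters were found upstream of both genes, of which Ltbp2 passed the threshold and Smurf1 did not. Their part in either difference was not tested.

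**Figure D4:**
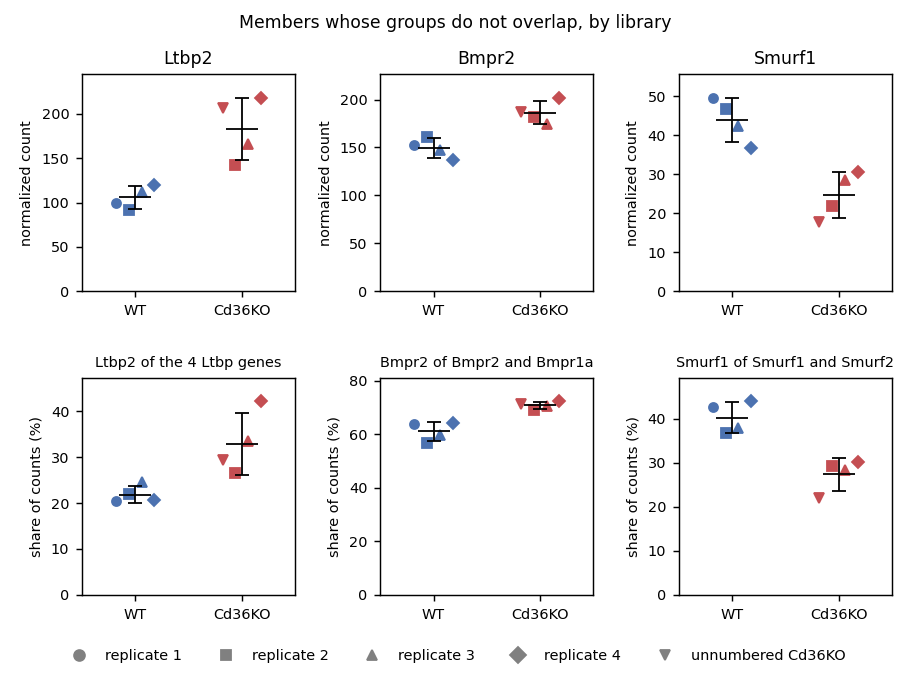
Normalized counts (upper row) of Ltbp2, Bmpr2 and Smurf1 in each of the 8 libraries, and (lower row) their share of the counts of the related genes, in percent, with the mean and SD of 4 libraries per group as bars. Ltbp2 and Bmpr2 are higher and Smurf1 lower in all 4 Cd36KO libraries, on both scales.

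Ski, the corepressor of Smad2 and Smad3, was 135 ± 17.3 in WT and 125 ± 4.39 in Cd36KO, and Skil, its relative and a target of TGF-beta, 23.4 ± 4.93 and 24.1 ± 6.37. Tgif1, a homeobox corepressor, had 0 to 9 counts per library. Of the extracellular antagonists, Fst, which encodes follistatin and neutralises activin, was 14.6 ± 5.26 and 9.65 ± 6.16, with the unnumbered Cd36KO library at 1.11. Its relatives Fstl1 and Fstl3 were 93.2 ± 16.0 and 18.3 ± 1.75 in WT and 85.5 ± 9.22 and 15.3 ± 8.49 in Cd36KO. None of these 5 genes with a mean of at least 10 passed the threshold (DESeq2, adjusted p from 0.714 to 0.966).

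The BMP antagonist genes among the members, Nog, Grem1 and Chrd, were close to or at the detection limit. Nog was counted once in all, in a Cd36KO library, and Grem1 once in all, in a WT library, so that no difference was detectable at this depth. Chrd had 0 to 3 counts per library, 10 in all in WT and 3 in Cd36KO, and Bambi, a pseudoreceptor, had 0 to 3. Of the target genes among the members, Tgfbi, a matrix protein induced by TGF-beta, was 35.9 ± 13.7 and 28.6 ± 6.32 (log2 fold change -0.31, SE 0.37, DESeq2 adjusted p = 0.762). Ctgf, listed as Ccn2 in the annotation, had 0 to 10 counts per library.

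A further 77 genes of the pathway, outside the 47, were counted in the same fit. DESeq2 gave an adjusted p for 49 of them and called 5, all lower in Cd36KO. Over all genes with an adjusted p, 2.95% were called in either direction and 1.53% lower. In 4 of the 49 the groups did not overlap, all lower, a number to be read against the 8.65% of all genes given above for either direction. Their median log2 fold change was -0.16, with 15 above and 34 below 0. Of the genes called, 4 are described here: Bmp3 and Acvr1c and, among 20 genes known to rise with TGF-beta in mesenchymal cells (16 with an adjusted p, 3 of them called lower and 0 higher), Col1a2 and Aldh1a1. Aldh1a1 was listed because the study measured it as a response gene, so its direction is not independent evidence. By edgeR, 1 of the 77 was called, again Aldh1a1.

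Acvr1c encodes ALK7, a type I receptor of adipocytes for activin-like ligands. It had 275, 388, 406 and 522 normalized counts in WT replicates 1 to 4 and 148, 238, 178 and 217 in the unnumbered Cd36KO library and replicates 2 to 4. All Cd36KO libraries were below all WT libraries, with a log2 fold change of -1.03 (SE 0.23, DESeq2 adjusted p = 0.00202). Bmp3, an atypical BMP that opposes the others, had 3.61, 19.5, 20 and 36.6 in WT and 0, 3.45, 4.09 and 0.763 in Cd36KO. WT replicate 1 lay within the Cd36KO range, as it did for the summed white fat markers, so the groups overlapped (log2 fold change -3.30, SE 0.84, DESeq2 adjusted p = 0.0103). The log2 fold change of Bmp3 lay between -3.89 and -2.72 in the alternatives without a marker covariate. DESeq2 or limma gave it an adjusted p in 9 of 15 alternatives, of which 4 missed the threshold, and none in the other 6, while Acvr1c missed it in 3 of 17. With the white fat marker level as a covariate the log2 fold change of Bmp3 was -0.83, with no adjusted p, and that of Acvr1c -0.45 (adjusted p = 0.430), while with the muscle covariate Bmp3 was at -5.15. Of the 10 white fat markers 5 were themselves called lower.

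Col1a2, a chain of fibrillar collagen I, had 877, 715, 789 and 448 normalized counts in WT and 272, 435, 289 and 323 in Cd36KO, a log2 fold change of -1.10 (SE 0.23, DESeq2 adjusted p = 0.000724). Aldh1a1, a retinaldehyde dehydrogenase, had 75.8, 97.7, 56.5 and 107 in WT and 34.5, 20.7, 12.3 and 28.2 in Cd36KO (log2 fold change -1.81, SE 0.34, DESeq2 adjusted p = 8.1e-05). Col1a1, which encodes the other chain of collagen I, was 387 ± 97.5 and 313 ± 80.4 and did not pass (log2 fold change -0.31, SE 0.23, DESeq2 adjusted p = 0.570). In Col1a2 and Aldh1a1 all Cd36KO libraries were below all WT libraries, and with the white fat covariate Col1a2 was called (-1.47, DESeq2 adjusted p = 0.000764) and Aldh1a1 was not (-1.52, adjusted p = 0.0615). Of 11 stromal markers, which include collagen genes, 1 was called lower, Dpt, and 0 higher, and the part of stromal content in these results was not tested.

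**Figure D5:**
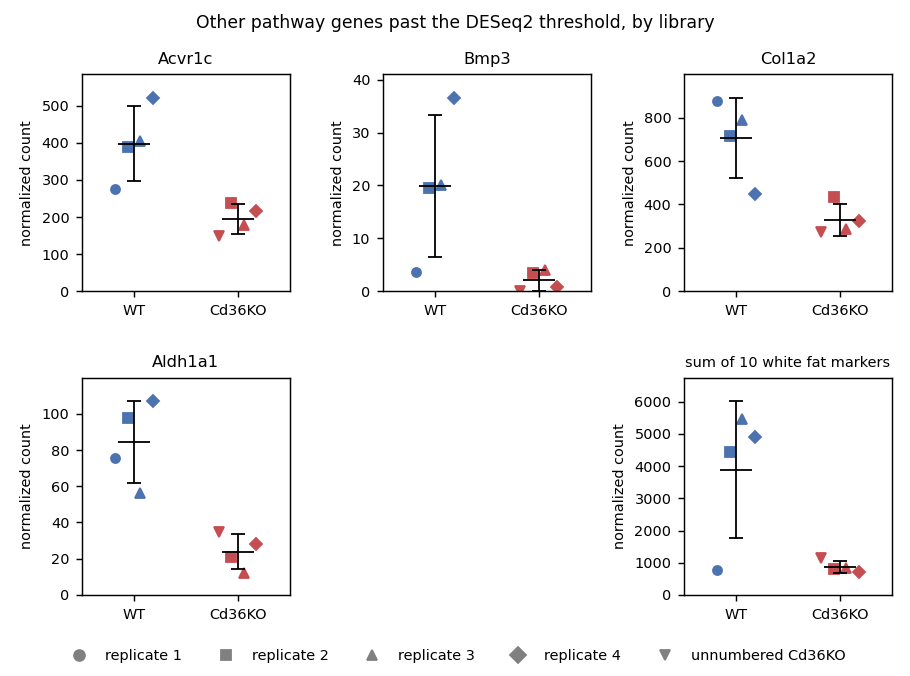
Normalized counts in each of the 8 libraries of 4 further pathway genes past the DESeq2 threshold, and the sum of the 10 white fat markers, with the mean and SD of 4 libraries per group as bars. The Cd36KO libraries are all below the WT libraries in Acvr1c, Col1a2 and Aldh1a1, while in Bmp3 and the white fat markers WT replicate 1 lies among them.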

How the data were processed

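According to the methods, reads were trimmed with bbduk, mapped to mm10 by STAR and summed per gene by HTSeq-count, while the submitters' processing notes name Trimmomatic and HISAT2. The authors deposited unnormalized integer counts of reads per gene, which were used here. The strand setting is not given in the sources used here, so genes that overlap are less certain. The log2 table deposited by the authors equals log2(count / size factor + 1) and served only the limma alternative. Identifiers were named from GENCODE M21 (GRCm38), with 31011 matched and 42 not. DESeq2 1.42.0 (Wald test, genotype as the only term, Benjamini-Hochberg adjusted p under 0.05) was fitted on all genes in R 4.3.3. It was chosen because the methods name it. edgeR 4.0.16 and limma 3.58.1 were alternatives. Statistical code was tested on simulated data. Depth was 2679785 to 4097953 counts per library, and intervals cover 95%. Coordinates are 1-based. Promoters came from RefSeq. The members and lists were chosen with earlier results of these data known. Given library by library were Tgfb1, Tgfbr1, Tgfbr2, Smad2, Smad3 and Smad4, members with an adjusted or unadjusted p under 0.05, members whose groups did not overlap, and further pathway genes called, of which 1 is not reported here.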

Additional observations from a re-analysis of the deposited data

Results flagged for a closer look

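On the scale of log2(normalized count + 1), the groups of the 30 members with a mean of at least 10 normalized counts and of the 5 further pathway genes called were examined for a single library that stood off from the other 3 by more than Dixon's 95% critical value, and 2 were found. Members under that mean were not examined. Smad2 was at 56.3 normalized counts in Cd36KO replicate 3, against 35.1 to 35.7 in the other Cd36KO libraries. Ltbp4 was at 27.6 in Cd36KO replicate 2, against 45.0 to 49.0, a gap of 0.850 of the range on the log2 scale that would not pass on the normalized counts themselves. Over these 70 groups of values, chance alone would give about 3.5 such libraries.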

How the results depend on the processing

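The count of 1 member called became 0 with edgeR, limma on the authors' log2 values, the muscle or the white fat marker level as a covariate, and it was 0 to 1 when single libraries were left out. It stayed 1 with TMM factors, a filter of 10 counts in 4 libraries, or independent filtering off. The 5 further pathway genes called became 1 with edgeR, 3 with TMM factors, 3 with the muscle covariate, 2 with the white fat covariate (Col1a2 and Fkbp1a, the latter higher), 0 with limma, and 3 to 8 when single libraries were left out (8 without WT replicate 1, 3 without Cd36KO replicate 3). The 3 members whose groups did not overlap became 3 to 7 when single libraries were left out, with 7 without WT replicate 4. The normalized counts were kept there, so this count could only stay or rise and says nothing of stability. Of the 9 members refitted gene by gene, signs turned for 3, none of them called: Tgfbr1 was -0.14 with the white fat covariate and -0.25 to 0.33 when single libraries were left out (below 0 without WT replicate 3 or Cd36KO replicate 2), Smad3 was -0.52 with the white fat covariate, and Tgfbr2 was -0.27 to 0.20 when single libraries were left out (above 0 without WT replicate 4, the unnumbered Cd36KO library or Cd36KO replicate 2). The causes were not tested.

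The count columns give the replicate numbers 2, 3 and 4 in both groups, and number 1 only in WT although the labels number a Cd36KO sample 1. Deviations of same-numbered libraries from their group means correlated at -0.13, 0.42 and 0.14 over 5528 genes, for replicates 2, 3 and 4. These few values cannot settle whether such libraries share more than a number. With the replicate block on those 6 libraries, 0 members and 8 further pathway genes were called, Tgfbr2 was 0.12, and 219 genes were called in all. The same 6 libraries without the block, an alternative chosen after seeing the data, gave 0 members, 7 further pathway genes, 0.15 for Tgfbr2, and 262 genes, beside 284 with all 8 libraries. At means under 10 normalized counts, which hold for 17 members, counting error limits what could be detected.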

Other observations

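Of the 77 further pathway genes, 74 had any count, and 12 of these had an unadjusted p under 0.05 (DESeq2). Over all genes with a p-value, low counts included, the share was 9.76%. The 12 were all among the 49 with an adjusted p, and no share over all genes with an adjusted p is given. Of the 12, 7 did not pass the threshold. Furin, the protease that cleaves the TGF-beta precursor, stood at 300 ± 49.0 in WT and 438 ± 97.7 in Cd36KO as mean ± SD of normalized counts (log2 fold change 0.55, SE 0.21, DESeq2 adjusted p = 0.139). Chrdl1, a BMP antagonist gene, was 34.7 ± 23.3 and 8.89 ± 2.93 (log2 fold change -1.96, SE 0.62, DESeq2 adjusted p = 0.0526), with WT replicate 1 at 3.61. The fibrillar collagen gene Col3a1 was 659 ± 107 and 445 ± 99.0 (log2 fold change -0.57, SE 0.20, DESeq2 adjusted p = 0.0953). The other 4 were Nedd4l (log2 fold change 0.52, DESeq2 adjusted p = 0.267), which encodes a ubiquitin ligase, Smoc1 (-0.61, adjusted p = 0.277), Fn1, the gene of fibronectin (-0.65, adjusted p = 0.307), and Postn, that of periostin (-0.69, adjusted p = 0.262).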
